A study of Homo sapiens with 9 samples.

Results

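To describe which gene programs moved in VCaP prostate cancer cells after transfection with si033, the 3 libraries titled si033 were compared with the 3 libraries titled control. These were 6 of the 9 libraries of the series, and the other 3 received si025. VCaP is an established prostate cancer cell line that responds to androgen. In each group the cells were given 100 pmol of siRNA by reverse transfection, harvest followed at 72 h, and the labels give no other agent. The target of both si033 and si025 was exon 1 of the long non-coding RNA (lncRNA) *IGF1R-AS1*, which lies on the strand opposite to *IGF1R*. These cells carry the genotype label of an *IGF1R-AS1* knockdown, and those with control siRNA are labelled WT. That lncRNA was not analysed here, and how far it fell in these libraries was not measured. The study reports its knockdown in VCaP cells by qPCR. The groups were 1 cell line at 1 dose and 1 time. The study calls its knockdown replicates biological, and the labels do not say how cultures were divided between libraries.

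Androgen signalling, with the factors FOXA1 and HOXB13, maintains luminal prostate gene expression, including the kallikreins. A small interfering RNA (siRNA) loads 1 of its strands into an Argonaute protein, where the whole strand directs cleavage of its intended target. Bases 2 to 8 of the loaded strand, the seed, can also lower other transcripts that pair with them in the 3′ untranslated region (3′ UTR), much as a microRNA does.

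The 6 libraries held between 11649811 and 28492259 counts, with a similar range in both groups. All 10 luminal prostate epithelium markers were at 5 CPM (counts scaled to a common library size) or more. Of these, 4 rose and 4 fell, with a median log2 fold change of 0.0045, and their summed level lay between 8446 and 8958 CPM with si033 and between 9350 and 9769 CPM in control. Only *LUM* of 12 fibroblast and smooth muscle markers, *ENG* of 8 endothelial markers and none of 10 leukocyte markers reached 5 CPM. Of 8 basal epithelium markers, *ITGA6* and *DST* did. That list summed to 320 to 329 CPM with si033 and 330 to 341 CPM in control. Of 12810 genes tested with the quasi-likelihood test of edgeR, 7015 (54.8%) had an adjusted *p* under 0.05 and are referred to as called. Of these, 3449 were higher and 3566 lower with si033. The description that follows uses the 10386 genes with a mean of at least 5 CPM over the 6 libraries. Of these, 58.3% were called, 27.2% higher and 31.1% lower, and their median log2 fold change was -0.01. Most changes were small. A change of at least 2-fold was called for 138 higher genes (1.33%) and 126 lower genes (1.21%). Against si025, 63.4% of the genes at 5 CPM or more differed, 3407 of them higher and 3180 lower with si033. The comparisons of si033 and of si025 with control share the control libraries, and their values are therefore given side by side.

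The largest increase among genes at 5 CPM or more was that of *LRRN3*. It encodes a neuronal leucine-rich repeat membrane protein and stood at 28.2, 28.6 and 24.5 CPM with si033 and at 1.75, 1.30 and 0.811 CPM in control. *LRRN3* rose by 4.52 on the log2 scale (SE 0.16, adjusted *p* = 1.73e-16). The si033 libraries were thus all at least an order of magnitude above control, while si025 left *LRRN3* at a mean of 1.09 CPM. *TGFB3*, a transforming growth factor beta ligand, read 11.9, 10.1 and 8.52 CPM with si033 and 0.873, 0.435 and 0.386 CPM in control, a log2 fold change of 4.27 (SE 0.23). *NTRK2*, the receptor tyrosine kinase for brain-derived neurotrophic factor, read 28.1, 30.5 and 31.8 CPM against 1.48, 1.81 and 2.05 CPM, a log2 fold change of 4.03 (SE 0.12). With si025, *NTRK2* was lower than in control by 0.55 on the log2 scale.

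Other large increases included *CDH17*, an intestinal cadherin (3.13), the insulin-like growth factor binding proteins *IGFBP5* (2.84) and *IGFBP3* (2.27), *NPNT*, the integrin ligand nephronectin (2.82), and the Wnt receptor *FZD7* (2.65). *MME*, the surface peptidase neprilysin, read 123.2, 123.9 and 121.2 CPM with si033 and 22.3, 21.3 and 21.2 CPM in control. *PEG10*, an imprinted gene derived from a retrotransposon, was the most abundant of the 15 in CPM. It read 2531, 2678 and 2624 CPM with si033 and 638.1, 652.3 and 630.7 CPM in control, a log2 fold change of 2.03 (SE 0.05). The transcription factors *MAF* (2.41) and *SATB1* (2.08) were among the 15 as well, with *MAGEH1* (2.30), *YY2* (2.18) and the adhesion protein gene *ADAM23* (2.17). The si033 and control libraries did not overlap for any of them, which the rule for naming them required.

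The largest decrease was that of a matrix gene. *COL14A1*, a fibril-associated collagen, read 1.40, 1.62 and 1.86 CPM with si033 and 13.8, 16.4 and 13.4 CPM in control, and fell by 3.09 on the log2 scale (SE 0.15, adjusted *p* = 4.54e-14). *CXCL11*, a chemokine for the receptor CXCR3, read 1.81, 0.928 and 1.04 CPM against 9.69, 9.50 and 10.04 CPM. It fell by 3.03 on the log2 scale (SE 0.17) with si033 and was higher than control by 0.88 with si025. *EML6*, a microtubule-associated protein gene, fell from 62.5, 65.6 and 61.5 CPM to 8.32, 7.12 and 8.70 CPM. *PGR*, the progesterone receptor, fell from 19.6, 18.4 and 19.5 CPM to 2.47, 2.94 and 2.86 CPM. Here too all si033 libraries were below all control libraries.

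Further decreases were seen for *COL5A2* (-2.77), the tetraspanin-like *TM4SF1* (-2.58), the sialyltransferase *ST3GAL1* (-2.57), the stromelysin *MMP10* (-2.52) and the angiotensin receptor *AGTR1* (-2.47). *PAPSS2*, which makes the sulfate donor of sulfotransferases (-2.44), *ALB* (-2.34), the matrix Gla protein gene *MGP* (-2.28), *RELN* (-2.25), *GDF15* (-2.23) and *DNASE2B* (-2.20) completed the 15. *ALB* was the most abundant of these, at 210, 221 and 222 CPM in control and 40.7, 42.5 and 44.6 CPM with si033. All 30 genes named by size differed between si033 and si025. With si025, 19 of them were called in the same direction as with si033, 9 in the opposite direction and 2 were not called.

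**Figure D1:**
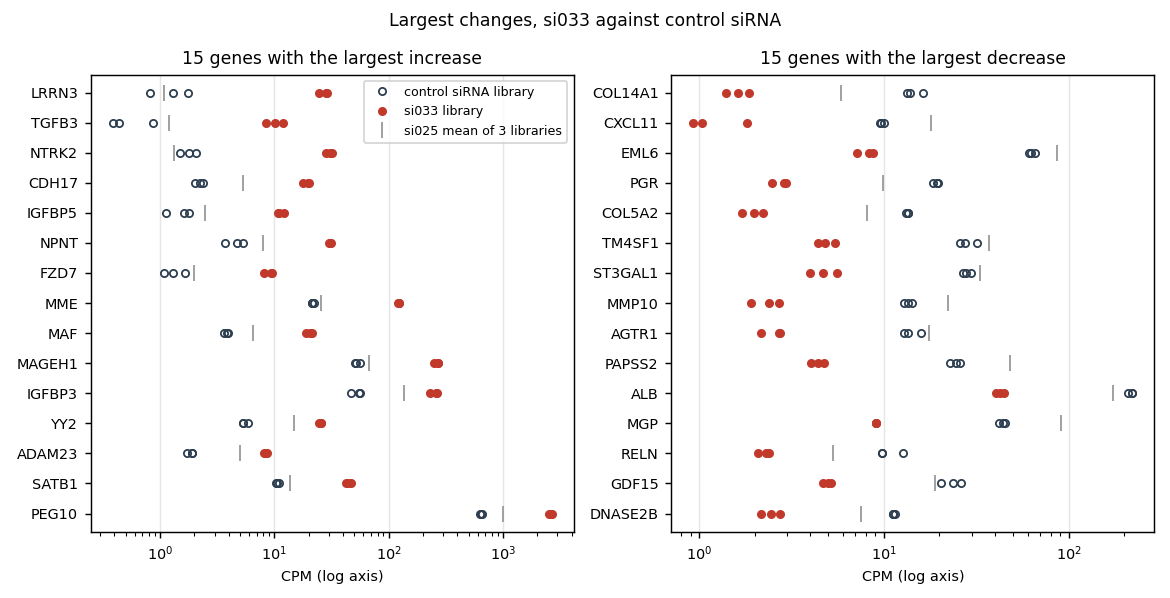
CPM on a log axis for the 15 genes with the largest increase (left) and the largest decrease (right) with si033 among genes at 5 CPM or more. Each filled point is 1 si033 library, each open point 1 control library, and the grey tick is the mean of 3 si025 libraries. The si033 and control points do not overlap for any gene, and for *LRRN3* the si025 mean of 1.09 CPM lies among the control points.

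The lists of luminal lineage factors and androgen-regulated genes held more decreases than increases, unlike the shorter list of luminal markers above. Of 17 prostate luminal lineage factors, 12 (70.6%) fell and 3 (17.6%) rose, against 31.1% and 27.2% over all genes. The median log2 fold change of these factors was -0.23. Of 29 androgen-regulated genes, 18 (62.1%) fell and 8 (27.6%) rose, with a median of -0.23. With si025 the medians were 0.26 and 0.11. The difference between the siRNAs was called for 14 of the 17 factors, 12 of them lower with si033. It was called for 26 of the 29 androgen-regulated genes, 18 of them lower with si033. Over all genes at 5 CPM or more it was called for 63.4%, with 3180 of 6587 lower with si033.

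Among the factors, *SPDEF*, an ETS factor of secretory epithelium, read 55.8, 60.4 and 63.4 CPM with si033 and 110, 119 and 106 CPM in control, a log2 fold change of -0.89 (SE 0.06). With si025 it was higher than control by 1.20, whereas all si033 values lay below all control values. The luminal keratin *KRT18*, which is among the 10 luminal markers above, fell by 0.66 on the log2 scale. Its level went from 189, 197 and 198 CPM to 127, 118 and 124 CPM. The pioneer factor *FOXA1* fell by 0.32. *HOXB13* rose by 0.26 on the log2 scale.

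The androgen-regulated genes did not move as a block. *TRPM8*, a cold-sensing calcium channel gene, fell from 273, 271 and 264 CPM to 120, 133 and 128 CPM (-1.08, SE 0.05). *ACSL3*, a long-chain acyl-CoA synthetase, fell by 0.74 on the log2 scale. *KLK2*, the glandular kallikrein, fell by 0.26, while *KLK3*, which encodes prostate-specific antigen, rose by 0.51 from a low level of 11.9, 14.1 and 14.1 CPM. *TMPRSS2* (0.03, adjusted *p* = 0.59 with edgeR) and *FKBP5* (0.08, adjusted *p* = 0.16) did not pass the test. Of 14 steroid enzyme genes, 4 (28.6%) were higher and 5 (35.7%) lower, near the shares over all genes (27.2% and 31.1%). Their median was -0.01 and had no stable sign, at 0.017 with upper quartile scaling, 0.028 without control replicate 3 and 0.071 at 20 CPM or more. *UGT2B17*, which inactivates androgens by glucuronidation, read 61.6, 68.8 and 65.8 CPM with si033 and 32.6, 29.1 and 33.7 CPM in control. It rose by 1.03 on the log2 scale with si033 and was lower than control by 1.25 with si025. *AKR1C1*, an aldo-keto reductase, rose by 1.19, and *HSD17B6*, a hydroxysteroid dehydrogenase, fell by 1.23.

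Against 27.2% higher and 31.1% lower over all genes, 11 (42.3%) of 26 nuclear receptors rose and 6 (23.1%) fell. Their median was 0.16, but it was 0.10 without si033 replicate 1 and -0.003 when only genes at 20 CPM or more were kept. The fallen receptors included *PGR* and *NR2F1*, an orphan receptor of the COUP-TF family, which read 4.37, 2.24 and 3.18 CPM with si033 and 14.8, 15.7 and 12.4 CPM in control. *RORB*, a retinoid-related orphan receptor, rose from 8.38, 8.70 and 7.53 CPM to 20.4, 22.7 and 21.3 CPM. *HNF4G*, a hepatocyte nuclear factor, rose by 1.18 on the log2 scale (SE 0.07) and the glucocorticoid receptor *NR3C1* by 0.60. With si025, *RORB* and *HNF4G* stood at 0.10 and 0.02 and neither was called.

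**Figure D2:**
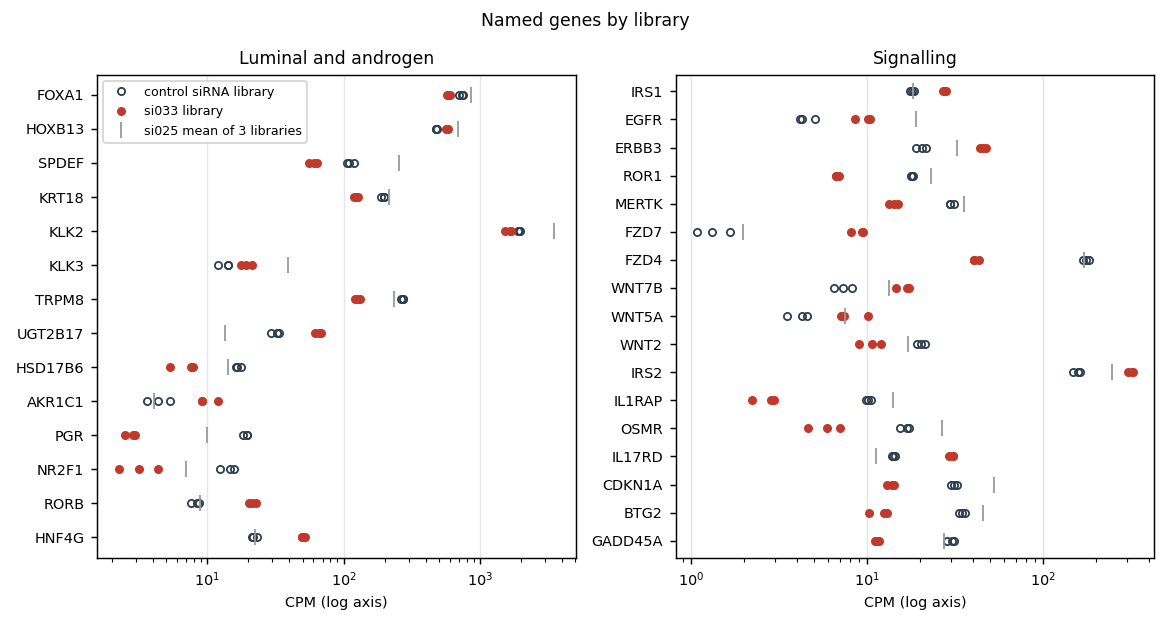
CPM on a log axis for named luminal, androgen-related and nuclear receptor genes (left) and signalling genes (right). Filled points are si033 libraries, open points control libraries and grey ticks the mean of 3 si025 libraries. *SPDEF*, *CDKN1A* and *BTG2* have si033 points below control and si025 ticks above control.

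Matrix genes changed in both directions. Of 10 collagens, 6 fell and 1 rose (median -0.23), the latter being the basement membrane collagen gene *COL4A2* (0.89). Against 27.2% higher and 31.1% lower over all genes, 13 (50%) of 26 matrix glycoproteins and proteoglycans rose and 9 (34.6%) fell. Their median was 0.29, but -0.04 when only genes at 20 CPM or more were kept. *HSPG2*, which encodes the basement membrane proteoglycan perlecan, read 123.03, 113.9 and 115.7 CPM with si033 and 338.4, 320.8 and 305.4 CPM in control. It fell by 1.45 on the log2 scale (SE 0.05) with si033 and was higher than control by 0.93 with si025. *FBN1*, encoding fibrillin-1 of elastic fibres, fell by 2.12 with si033 and stood at -1.89 with si025, and si033 and si025 did not differ past the threshold (adjusted *p* = 0.12 with edgeR). The glypican *GPC6* rose from 6.29, 6.16 and 5.79 CPM to 16.6, 18.7 and 16.7 CPM, and *GPC1* rose by 0.66 on the log2 scale. Of 8 metalloproteinases and inhibitors, 5 (62.5%) fell and 2 (25%) rose. Their median was -0.45, but -0.066 at 1 CPM or more and -0.69 at 20 CPM or more. The 2 that rose were the membrane-type enzyme *MMP24* (0.84) and the inhibitor *TIMP2* (0.88). The fibroblast and smooth muscle markers, which share *LUM* with the matrix list, summed to 14.5 to 17.0 CPM with si033 and 23.2 to 23.6 CPM in control. The endothelial markers, led by *ENG*, summed to 41.5 to 46.8 CPM and 56.7 to 59.3 CPM. Their part in the matrix results was not tested.

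Glycosyltransferases, which build the sugar chains of secreted and membrane proteins and of glycolipids, were more often higher. Of 58 genes, 26 (44.8%) rose and 10 (17.2%) fell, against 27.2% and 31.1% over all genes. The median of the 58 was 0.10, and 0.19 at 1 CPM or more. *B3GALT5*, a galactosyltransferase of the Lewis antigen pathway, rose from 18.3, 18.9 and 16.03 CPM to 64.0, 63.6 and 66.0 CPM (1.89, SE 0.10). *MGAT3*, which adds the bisecting residue of N-glycans, rose by 1.20 and the alpha-2,6-sialyltransferase *ST6GAL1* by 1.12 on the log2 scale. *ST3GAL1*, which caps core 1 O-glycans, fell from 27.0, 29.8 and 27.7 CPM to 3.96, 5.57 and 4.66 CPM. *GCNT1*, which branches the same core into core 2, fell by 1.36. With si025, *ST3GAL1* was higher than control by 0.24 on the log2 scale and *GCNT1* lower by 0.30.

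Signalling families were split between members. Of 21 Wnt ligands, receptors and inhibitors, 10 (47.6%) rose and 6 (28.6%) fell, against 27.2% and 31.1% over all genes. The median of these Wnt genes was 0.17, but -0.03 at 20 CPM or more and 0.01 at 1 CPM or more. The Frizzled receptors moved apart, since *FZD7* rose from 1.31, 1.09 and 1.66 CPM to 9.48, 9.36 and 8.14 CPM, whereas *FZD4* fell from 175, 182 and 170 CPM to 40.5, 43.2 and 40.7 CPM. For *FZD4* the log2 fold change was -2.08 (SE 0.06) with si033 and -0.04 with si025. Among ligands, *WNT7B* (1.13) and *WNT5A* (1.09) rose and *WNT2* (-0.92) fell. The Wnt co-receptor *ROR1* fell by 1.40 on the log2 scale.

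Against 27.2% higher and 31.1% lower over all genes, 5 (31.25%) of 16 receptor tyrosine kinases rose and 7 (43.75%) fell. Their median was -0.01 and changed sign with upper quartile scaling (0.016), at 20 CPM or more (0.099), without si033 replicate 3 (0.0090) and without control replicate 3 (0.0043). Beside *NTRK2*, the epidermal growth factor receptor family members *EGFR* (1.15, SE 0.14) and *ERBB3* (1.15, SE 0.06) rose. *ERBB3* read 47.5, 45.3 and 43.5 CPM with si033 and 18.9, 21.6 and 20.5 CPM in control. *MERTK*, a receptor for bridging ligands of apoptotic cells, fell by 1.08. *IGF1R*, the gene opposite the targeted lncRNA, which was chosen after its values were seen, read 513.5, 499.4 and 509.4 CPM with si033 and 420.2, 416.8 and 419.8 CPM in control. It rose by 0.28 on the log2 scale (SE 0.05) and stood at 0.04 with si025. In the PI3K, AKT and mTOR list, 15 (41.7%) of 36 genes rose and 12 (33.3%) fell (median 0.09). The insulin receptor substrates *IRS2* (1.02) and *IRS1* (0.62) rose with the binding proteins named above.

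Of 27 chemokine, interleukin and tumour necrosis factor family genes and receptors, 11 (40.7%) fell and 7 (25.9%) rose. Over all genes these shares were 31.1% and 27.2%. The median of the 27 was -0.15, but -0.083 at 1 CPM or more. *IL1RAP*, the shared co-receptor of interleukin-1 family cytokines, read 2.22, 2.86 and 2.97 CPM with si033 and 10.1, 9.86 and 10.5 CPM in control. *OSMR*, the oncostatin M receptor, fell by 1.43 on the log2 scale. With si025 the median of the list was 0.25, and *IL1RAP* (0.47) and *OSMR* (0.67) were higher than control. *IL17RD* rose by 1.10 with si033. Interferon response genes were more often higher, with 10 (41.7%) of 24 higher and 3 (12.5%) lower (median 0.12, but 0.26 at 1 CPM or more). With si025 their median was 0.26, with 15 higher than control and 3 lower. *ISG15* rose by 0.60, *PLSCR1* by 0.77 and *HERC6* by 0.67, but the RNA sensor *IFIH1* fell by 0.70. None of the 24 genes of this list changed 2-fold. The list does not hold *CXCL11*, an interferon-inducible gene described above.

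Of 22 p53 target genes, 10 (45.5%) fell and 7 (31.8%) rose, against 31.1% and 27.2% over all genes. The median of the 22 was -0.10, but -0.17 at 1 CPM or more and -0.23 at 20 CPM or more. Their called changes of at least 2-fold were 4, all decreases. These were *GDF15*, *BTG2*, *GADD45A* and *CDKN1A*. *CDKN1A*, which encodes the cyclin-dependent kinase inhibitor p21, read 13.8, 14.2 and 13.0 CPM with si033 and 30.1, 32.4 and 31.1 CPM in control. It fell by 1.20 on the log2 scale (SE 0.07) and was higher than control by 0.75 with si025. *BTG2*, an antiproliferative gene, fell from 33.1, 35.95 and 34.4 CPM to 10.3, 12.9 and 12.5 CPM, and *GADD45A*, a stress response gene, fell by 1.39. *MDM2*, the p53 ubiquitin ligase gene, rose by 0.18. In total 15 of the 22 genes differed between the siRNAs, and 14 of these were lower with si033. Over all genes at 5 CPM or more 63.4% differed, and 3180 of these 6587 were lower with si033. Of 23 neuroendocrine and neuronal genes, 10 (43.5%) rose and 5 (21.7%) fell (median 0.10, but 0.012 at 20 CPM or more). The prohormone-processing enzyme *CPE* rose from 20.3, 20.7 and 19.9 CPM to 35.4, 41.0 and 41.4 CPM and the granin *SCG2* by 0.91 on the log2 scale, whereas *SCGN* fell by 0.75. The synaptic vesicle gene *SYP* stood at 0.12 (adjusted *p* = 0.11 with edgeR).

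Genes of protein folding and amino acid supply were mainly lower, by small amounts. Of 36 endoplasmic reticulum (ER) chaperone and unfolded protein response genes, 24 fell and 2 rose (median -0.26), and none changed 2-fold. *HSPA5*, the main ER chaperone BiP, read 1172, 1210.5 and 1186 CPM with si033 and 1697, 1743 and 1735 CPM in control (-0.54, SE 0.04). *DNAJB9* (-0.74), *DNAJB11* (-0.74) and the disulfide isomerase *PDIA4* (-0.62) fell, the stress sensor *ERN1* rose by 0.29, and *XBP1* stood at -0.05 (adjusted *p* = 0.37 with edgeR). Of 60 heat shock and DNAJ genes, 33 fell and 11 rose (median -0.15), with *DNAJB12* at -0.89 and *DNAJB2* at 0.67. Of 36 genes of the amino acid response, which is driven by ATF4, 21 fell and 4 rose (median -0.27). The glutamine transporter *SLC1A5* fell from 77.3, 78.6 and 74.98 CPM to 43.4, 40.9 and 44.7 CPM, and was higher than control by 0.55 with si025. *DDIT3*, which encodes CHOP, fell by 0.53 and *ATF4* by 0.15, while *ASNS* stood at -0.08 (adjusted *p* = 0.14).

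Lipid synthesis genes fell in the same size range. In cholesterol synthesis and uptake, 20 of 30 genes fell and 2 rose (median -0.27). The early enzyme *HMGCS1* (-0.56), the regulator *INSIG2* (-0.61) and the sterol exporter *ABCG1* (-1.03) fell, and *ABCA1* rose by 0.42. *HMGCS1* read 377, 402 and 389 CPM with si033 and 563, 587 and 571 CPM in control. Of 28 genes of fatty acid synthesis and desaturation, 16 fell and 5 rose (median -0.21). *FASN*, the fatty acid synthase, read 1494, 1388 and 1421 CPM against 1956, 1875 and 1687 CPM. *DGAT2*, which makes triglyceride, rose by 0.90. The fatty acid median was 0.11 with si025, whereas the cholesterol median was -0.18.

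**Figure D3:**
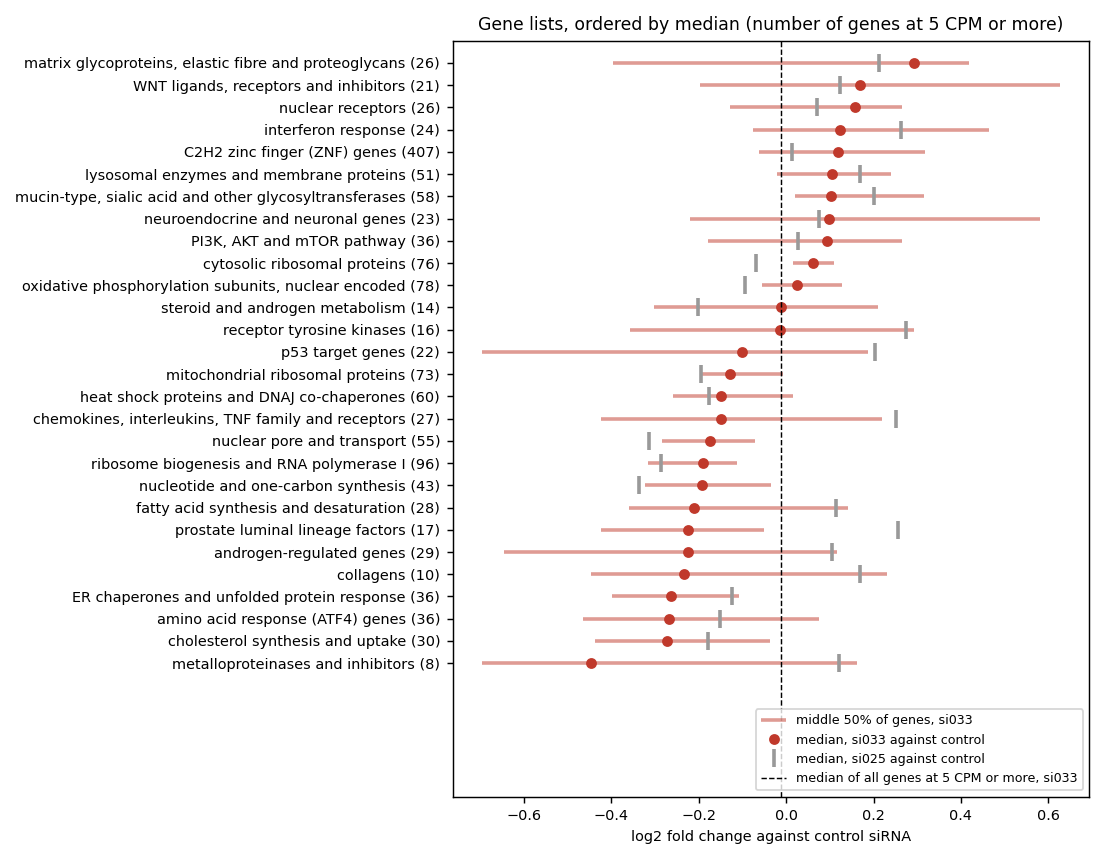
Median log2 fold change against control siRNA for 28 gene lists, with the number of genes at 5 CPM or more in parentheses. Red points and lines are the median and middle 50% of genes with si033, grey ticks the median with si025, and the dashed line the median of all genes (-0.01). Luminal lineage factors lie at -0.23 with si033 and 0.26 with si025.

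Genes of ribosome assembly, nuclear transport and nucleotide synthesis were mainly lower. Of 96 ribosome biogenesis and RNA polymerase I genes, 65 fell and 2 rose (median -0.19). *RRP1B* read 135, 131 and 136 CPM with si033 and 234.7, 224.5 and 225.6 CPM in control. The helicase *DDX18* (-0.66), the biogenesis factor *TSR1* (-0.61) and the nucleolar proteins *NCL* (-0.39), *FBL* (-0.29) and *NPM1* (-0.17) fell. The 2 that rose were *NOP58* (0.48), a core protein of box C/D particles, and *UBTF* (0.12). Of 55 nuclear pore and transport genes, 34 fell and 4 rose (median -0.17), led by the importin *IPO7*, whose mean was 359 CPM with si033 and 627 CPM in control, and *TNPO3* (-0.80). Of 43 nucleotide and one-carbon genes, 25 fell and 4 rose (median -0.19). *ADSS*, an adenylosuccinate synthase, fell by 1.20, the methionine synthase *MTR* by 0.88 and *MTHFD1* by 0.82, while the purine salvage enzyme *HPRT1* rose from a mean of 55.9 to 104 CPM. All 3 lists had lower medians with si025, at -0.29 for ribosome biogenesis, -0.31 for nuclear pore and -0.34 for nucleotide genes.

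Ribosomal protein genes did not follow the factors that assemble ribosomes. Of 76 cytosolic ribosomal protein genes, 19 rose, 4 fell and 53 were not called. The median was 0.06, but 0.040 without si033 replicate 2 and 0.10 without si033 replicate 3, and 1 si033 library had a median near the control mean (-0.0011). *RPS14* (0.37) and *RPLP2* (0.26) rose, and *RPL17* (-0.74) and *RPL15* (-0.30) fell. *RPL9* read 600.3, 633.6 and 536.4 CPM with si033 and 368, 371 and 399 CPM in control, and stood at -2.61 with si025. Ribosomal protein genes have many processed copies in the genome, and read pairs that match several places were not counted, so their levels are less certain. Of 73 mitochondrial ribosomal protein genes, 33 fell and 7 rose (median -0.13), and *MRPL36* rose by 1.46. Of 78 nuclear-encoded oxidative phosphorylation subunits, 18 rose, 5 fell and 55 were not called. Their median was 0.02 and ranged from 0.013 without si033 replicate 2 to 0.059 without si033 replicate 3. *UQCR10* (0.73) and *UQCRB* (-0.70), both of complex III, moved apart. The difference between the siRNAs was called for 47 of the 76 cytosolic ribosomal protein genes and 46 of the 78 oxidative phosphorylation genes, shares under the 63.4% of all genes. Of those called, 44 and 38 were higher with si033, against 3407 of 6587 over all genes.

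C2H2 zinc finger genes formed the largest list with more increases than decreases. Of 407 *ZNF* genes, which mostly encode DNA-binding repressors, 166 (40.8%) rose and 44 (10.8%) fell, with a median of 0.12. The median per library lay between 0.10 and 0.14 above the control mean with si033, and between -0.01 and 0.02 in the control libraries. *ZNF41* read 48.6, 52.1 and 49.97 CPM with si033 and 16.1, 20.01 and 21.5 CPM in control. *ZNF630* (1.26) and *ZNF585B* (1.14) also rose, and *ZNF165* (-0.88) and *ZNF503* (-0.60) fell. With si025 the *ZNF* median was 0.01, and 223 of the 407 genes differed between the siRNAs, a share under the 63.4% of all genes. Of these 223, 159 were higher with si033. Of the 407 genes, 78 held the control siRNA seed match described below, against 1254 of 9914 genes (12.6%) with an annotated 3′ UTR. Of 51 lysosomal genes, 22 rose and 7 fell (median 0.10). *LAMP2*, a lysosomal membrane protein, rose from 73.6, 72.9 and 77.8 CPM to 121, 126 and 125 CPM, and the regulators *MITF* (-0.63) and *TFEB* (-0.42) fell. Of the remaining lists with at least 5 genes, 55 in number, 38 had a median within 0.1 of zero, and their medians ranged from -0.26 for histone genes to 0.24 for HOX genes.

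**Figure D4:**
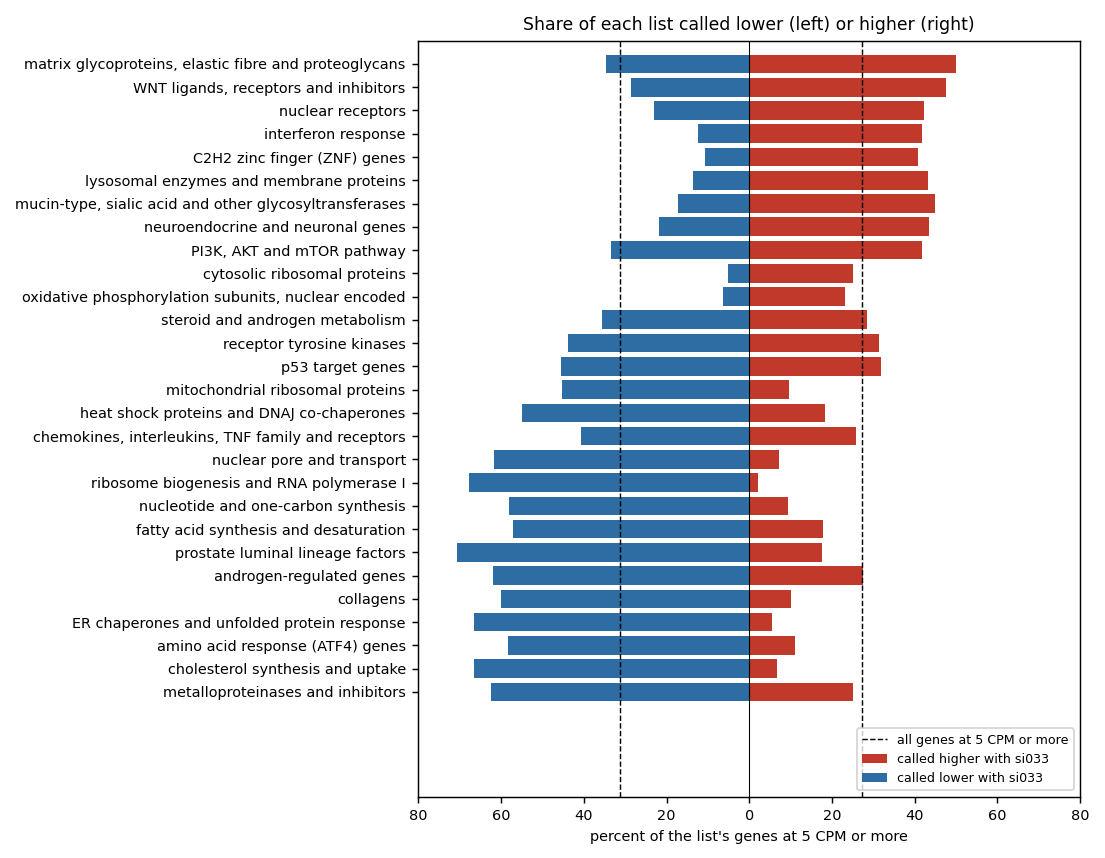
Percent of the genes of each list at 5 CPM or more called lower (blue, to the left) or higher (red, to the right) with si033. The dashed lines mark the same shares over all genes, 31.1% lower and 27.2% higher. Ribosome biogenesis has 67.7% lower and 2.08% higher, and *ZNF* genes have 10.8% lower and 40.8% higher.

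Changes in either direction were next set beside short matches to the siRNAs, whose sequences are shown because genes that match the seed of the first had higher fold changes. The study lists 1 sequence for the control siRNA and 2 for *IGF1R-AS1*, and the labels do not say which of these is si033. Each core of 19 bases is given 5′ to 3′ as listed and as its reverse complement, with the seed in capitals.
control siRNA, opposite strand: uUGAUGUGuuuagucgcua
control siRNA, listed strand: uAGCGACUaaacacaucaa
IGF1R-AS1 siRNA 1, listed strand: aGAAAGCAcugaagaccua
IGF1R-AS1 siRNA 1, opposite strand: uAGGUCUUcagugcuuucu
IGF1R-AS1 siRNA 2, listed strand: cCGUAUUGcucaguggaaa
IGF1R-AS1 siRNA 2, opposite strand: uUUCCACUgagcaauacgg

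Among 9914 genes at 5 CPM or more with an annotated 3′ UTR, 1254 (12.6%) held CACATCA, the match to the seed of the opposite strand of the control siRNA. Their median log2 fold change was 0.08, against -0.03 for genes without it, and 42.3% of them rose, against 25.1%. The 287 genes with the match extended to 8 bases, CACATCAA, had a median of 0.18, and 51.2% of them rose. With si025, the medians of genes with the 7-base and 8-base match were 0.12 and 0.19. In the comparison of si033 with si025, which does not involve the control libraries, the medians were 0.00 with the 7-base match and 0.02 without it. The 7-base match was held by 47 of 133 genes (35.3%) that rose at least 2-fold with si033. Of the genes that fell at least 2-fold, 11 of 120 (9.17%) held it. Among the 15 most increased genes, 6 held it, namely *NTRK2*, *NPNT*, *MME*, *YY2*, *ADAM23* and *PEG10*. Among the 15 most decreased genes, 5 held it. The median 3′ UTR length was 2727 bases for genes that rose at least 2-fold and 1872 bases for those that fell. For the other 5 strands the difference between the medians with and without a 7-base match lay between -0.02 and 0.02.

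All words of 7 bases present in at least 1000 of these 3′ UTRs, 8593 in number, were then ordered by the difference in median between genes with and without the word. CACATCA had the highest difference, 0.11. GAAACAA had the lowest, -0.12, and is not the seed match of any listed strand. The word was picked by these fold changes, so its values are descriptive. Of the 2014 genes that held it, 45.8% fell, against 31.2% of all genes, and their median was -0.11. With si025 the median of the same genes was 0.00. The word was present in 56 of 120 genes (46.7%) that fell at least 2-fold with si033, in 33 of 133 (24.8%) that rose at least 2-fold and in 20.3% of all genes. The difference by library lay between -0.17 and -0.10 with si033 and between -0.01 and 0.01 in control. Genes with either word had long 3′ UTRs, with median lengths of 3479 bases for the control match and 3346 bases for GAAACAA, against 1193 bases for genes with neither. The part of these matches and of 3′ UTR length in the gene list results was not tested.

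**Figure D5:**
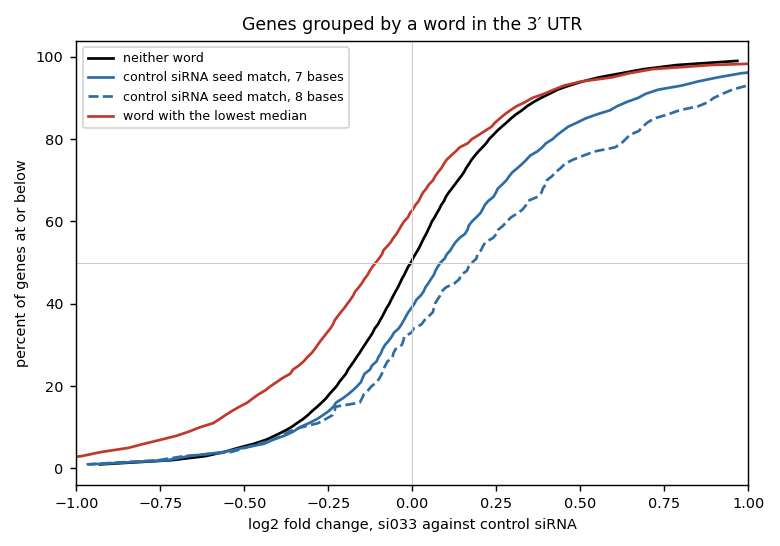
Cumulative percent of genes by log2 fold change with si033, for genes at 5 CPM or more with an annotated 3′ UTR. Genes with the control siRNA seed match (blue, 7 bases solid and 8 bases dashed) lie to the right of genes with neither word (black), and genes with the word of lowest median (red) lie to the left, with medians of 0.08, 0.18, 0.00 and -0.11.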

How the data were processed

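According to the methods of the study, the authors aligned paired-end reads to hg38 with HISAT2 (2.1.0 in the submitters' processing notes). Per the file headers, the deposited values are raw counts of read pairs per gene symbol from featureCounts 1.5.2, over exons of a RefSeq annotation and on 1 strand. The methods name GENCODE instead. The labels and methods also differ in the extraction kit.

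Counts were tested with edgeR 4.0.16 (quasi-likelihood, TMM, default filter, all 9 libraries, 3 group means) in R 4.3.3. *P* values were adjusted by Benjamini-Hochberg over 12810 genes. CPM use TMM library sizes, and SE is the standard error of a log2 fold change. The script was tested on simulated data. Totals were 11963322, 12864624 and 28492259 for si033 and 11649811, 14106584 and 26760578 for control.

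The named genes were the 15 largest called changes in each direction without overlap at 5 CPM or more, up to 3 called genes per direction and list, and key members. The comparison, the 84 lists and the rule were chosen with earlier results of these data known. The 3′ UTRs are the longest per gene in GENCODE 44. *IGF1R-AS1*, *PVT1* and *CCAT1* were not analysed here, and some list members are not reported here. Alternatives were other normalizations, DESeq2 1.42.0, no filter, 6 libraries, a replicate block, length and GC offsets, other CPM minimums and leaving out each library.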

Additional observations from a re-analysis of the deposited data

Results flagged for a closer look

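Among the 30 genes named by size, 9 were called in opposite directions by the siRNAs against the shared control, and the direct contrast of si033 with si025 was called for each with the quasi-likelihood test of edgeR. The si033 minus si025 difference on the log2 scale was -3.91 for *CXCL11*, -3.43 for *PAPSS2*, -3.40 for *EML6*, -3.33 for *MGP*, -3.25 for *MMP10*, -2.96 for *TM4SF1*, -2.82 for *ST3GAL1* and -2.78 for *AGTR1*. For *NTRK2* it was 4.58. Each of the 9 had all 3 si033 libraries on the other side of control from the mean of si025. This follows from the rules that picked them.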

How the results depend on the processing

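For all alternatives, including leaving out each library, between 6151 and 7743 genes were called, and between 258 and 271 genes at 5 CPM or more changed at least 2-fold. The share of called genes that were higher was 49.2% and reached 54.4% with upper quartile scaling and 46.8% with DESeq2. The 30 genes named by size kept their call and direction in every refit (390 values over all genes and refits). The replicate numbers did not pair the libraries (correlations of 0.07, -0.12 and 0.04), and a replicate block gave 7094 calls. Of 420 list medians under the alternatives, 352 lay within the spread between libraries. With upper quartile scaling, medians moved to -0.20 for androgen-regulated genes, 0.017 for steroid enzymes, 0.13 for glycosyltransferases, 0.016 for receptor tyrosine kinases, 0.12 for PI3K, 0.13 for neuroendocrine, -0.12 for heat shock, -0.24 for ATF4, -0.24 for cholesterol, -0.16 for ribosome biogenesis, -0.14 for nuclear pore, 0.13 for lysosomal and 0.15 for *ZNF* genes. With length and GC offsets, they moved to -0.24 for androgen-regulated genes, 0.10 for nuclear receptors, 0.11 for Wnt, 0.062 for PI3K, -0.23 for ER chaperones and -0.095 for mitochondrial ribosomal proteins. At 1 CPM or more, they were -0.19 for androgen-regulated genes, 0.20 for nuclear receptors, -0.066 for metalloproteinases, 0.19 for glycosyltransferases, 0.010 for Wnt, -0.083 for chemokines, 0.26 for interferon and -0.17 for p53 targets. At 20 CPM or more, they were -0.25 for androgen-regulated genes, -0.0032 for nuclear receptors, 0.071 for steroid enzymes, -0.042 for matrix glycoproteins, -0.69 for metalloproteinases, -0.027 for Wnt, 0.099 for receptor tyrosine kinases, -0.10 for chemokines, 0.012 for neuroendocrine, -0.23 for p53 targets, -0.24 for ATF4 and 0.10 for *ZNF* genes, since fewer genes enter. Leaving out 1 library at a time gave ranges of 0.040 to 0.10 for cytosolic ribosomal proteins, 0.013 to 0.059 for oxidative phosphorylation, -0.26 to -0.17 for luminal factors, 0.10 to 0.17 for nuclear receptors, 0.072 to 0.13 for neuroendocrine, -0.28 to -0.23 for ER chaperones, -0.27 to -0.22 for ATF4, -0.29 to -0.25 for cholesterol, -0.043 to 0.028 for steroid enzymes, 0.11 to 0.14 for glycosyltransferases, 0.10 to 0.13 for lysosomal genes, -0.23 to -0.20 for androgen-regulated genes, 0.13 to 0.21 for Wnt, -0.029 to 0.0090 for receptor tyrosine kinases, 0.063 to 0.11 for PI3K, -0.22 to -0.16 for nucleotide genes, -0.20 to -0.15 for nuclear pore and 0.20 to 0.31 for matrix glycoproteins. The difference in median between genes with and without the control siRNA seed match was 0.11, 0.19 with the 8-base match, and 0.10 to 0.12 when 1 library was left out, an alternative added after seeing the data. The minimum of 5 CPM is a mean over both groups, so genes such as *TGFB3* and *FZD7* (control) or *CXCL11* (si033) had low values in 1 group and their fold changes rest on those.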

Other observations

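Further gene families moved with si033 at 5 CPM or more, and their lists were not recomputed under the alternatives. Of 14 ETS factors, 9 fell and 1 rose (median log2 fold change -0.16). The epithelial factor *EHF* read 373, 383 and 396 CPM with si033 and 701, 702 and 729 CPM in control. *ETS2* fell by 0.94 on the log2 scale, and *ELF5*, a factor of secretory epithelium, was the single member that rose (1.24, SE 0.13). Of 18 histone genes, 13 fell and 1 rose (median -0.26), against a median of -0.66 with si025. Among 21 potassium channel genes, 10 rose and 5 fell (median 0.23), with the leak channel *KCNK15* at 1.22 and the voltage-gated *KCNH8* at -0.91.

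The hypoxia-inducible factor genes moved apart. *HIF1A* read 249, 285 and 269 CPM with si033 and 170.4, 171 and 177 CPM in control, whereas *EPAS1*, which encodes HIF-2 alpha, read 27.8, 29.5 and 28.02 CPM against 64.9, 63.8 and 56.9 CPM. Of 29 genes regulated by hypoxia, 9 (31.0%) rose and 10 (34.5%) fell (median 0.06). These shares were near those over all genes (27.2% and 31.1%). The vasodilator peptide gene *ADM* stood at -1.28 and the stanniocalcin *STC1* at 1.16. With si025, *HIF1A* was higher than control by 0.84 on the log2 scale and *EPAS1* by 0.28.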
